A study of Homo sapiens with 24 samples.

Results

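The genes described here are 32 genes of the endoplasmic reticulum (ER): its stress sensors, chaperones, disulfide isomerases and degradation machinery. They were taken by symbol from the 58780 genes that the tables list; the rule uses no measured value, but it was set with earlier results of these data known. The TPA table lists all 32 with a p-value, and the DMSO table lists 31, without DERL3. The libraries are from MyLa, a cell line from mycosis fungoides, and HuT 78, a cell line from Sézary syndrome, both cutaneous T cell lymphomas. Cells carried an shRNA against PRKCQ (shPRKCQ) or a non-targeting control hairpin (NTC), and were treated for 24 h with 10 ng/ml TPA, a phorbol ester and direct protein kinase C activator, or with DMSO, its vehicle. The 8 groups are MyLa shPRKCQ TPA, HuT 78 shPRKCQ TPA, MyLa shPRKCQ DMSO, HuT 78 shPRKCQ DMSO, MyLa NTC TPA, HuT 78 NTC TPA, MyLa NTC DMSO and HuT 78 NTC DMSO, with 3 libraries each. Knockdown cells were grown with 1 µg/ml doxycycline for 72 h or longer, per the labels' protocols. These do not say whether NTC cells received doxycycline, so the hairpin's effects and those of doxycycline cannot be told apart.

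Each of the 2 tables compares 6 shPRKCQ with 6 NTC libraries over both lines. Columns hold a log2 fold change with its raw and adjusted p, which are blank for some genes. No value per library was used, so levels, depth, the spread between replicates and any difference between the lines are not analysed here, and T cell identity could not be checked by level. Being listed with an adjusted p does not separate cell types: in the TPA table this held for 11 of 12 T cell, 2 of 3 B cell, 2 of 4 myeloid and 3 of 3 epithelial markers, and in the DMSO table for 5, 1, 1 and 0 of them. The direction of the fold change is not stated; it was read as shPRKCQ over NTC because PRKCQ, the targeted gene, is at -2.08 in the TPA and -2.11 in the DMSO table (authors' deposited tables, adjusted p = 1.67e-15 and 5.61e-14).

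The ER folds secreted and membrane proteins with the help of HSPA5 (BiP), lectin chaperones and disulfide isomerases, and sends failed products back to the cytosol for degradation. When unfolded proteins accumulate, the sensors ERN1 (IRE1), ATF6 and EIF2AK3 (PERK) start the unfolded protein response: ERN1 splices XBP1 mRNA, cleaved ATF6 moves to the nucleus, and EIF2AK3 slows translation. Among lymphocytes it is best known from plasma cells, where XBP1 enlarges the secretory apparatus. Tables of gene totals cannot show XBP1 splicing, ATF6 cleavage or EIF2AK3 activity.

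ATF6 and XBP1 act through the ER stress response element (ERSE), which is CCAAT, 9 bases of any kind and CCACG, and through ERSE-II, which is ATTGG, 1 base of any kind and CCACG. RefSeq promoter windows (GRCh38.p14) were found for 28 of the 32 genes. Some genes have more than 1 RefSeq start, with 35116 windows over 27305 genes. The 250 bases upstream of each start were searched on both strands for exact matches. A gene was counted if any of its windows held a match. Such a start can lie inside the gene's GENCODE span, as for the elements printed below for CANX, PDIA6, HSP90B1 and CRELD2. An ERSE was found in 7 of the 28 genes, against 0.0916% of all 27305 genes with a window, and an ERSE-II in 3 of the 28, against 0.0659% of all genes. The ERSE was first described in promoters of ER chaperones such as HSPA5, and these shares are a description of known targets. The matched elements are shown because they are the sequence that 10 of the genes share; capitals mark the element, 5 bases stand on either side, and the strand is that of the gene, so that a reversed element reads CGTGG first.
XBP1, chr22:28800598-28800626, minus strand: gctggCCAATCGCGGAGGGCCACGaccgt
HSPA5, chr9:125241386-125241414, minus strand: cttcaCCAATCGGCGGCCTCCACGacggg
HSP90B1, chr12:103930316-103930344, plus strand: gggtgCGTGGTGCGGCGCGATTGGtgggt
CALR, chr19:12938379-12938407, plus strand: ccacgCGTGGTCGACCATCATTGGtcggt
CANX, chr5:179698773-179698801, plus strand: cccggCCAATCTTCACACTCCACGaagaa
PDIA6, chr2:10812848-10812876, minus strand: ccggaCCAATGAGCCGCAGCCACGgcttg
CRELD2, chr22:49918549-49918577, plus strand: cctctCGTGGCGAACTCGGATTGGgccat
HYOU1, chr11:119057269-119057289, minus strand: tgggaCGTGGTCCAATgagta
SDF2L1, chr22:21642109-21642129, plus strand: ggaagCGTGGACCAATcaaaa
HERPUD1, chr16:56932020-56932040, plus strand: cgccgATTGGGCCACGttggg

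The whole 250 bases upstream of HSPA5, the gene most used as a readout of this response, show where the element stands. Capitals mark its exact ERSE match, and the last base is the one before the RefSeq start. Sequences that differ from the ERSE at any fixed base were not searched for and are not marked.
HSPA5, chr9:125241344-125241593, minus strand: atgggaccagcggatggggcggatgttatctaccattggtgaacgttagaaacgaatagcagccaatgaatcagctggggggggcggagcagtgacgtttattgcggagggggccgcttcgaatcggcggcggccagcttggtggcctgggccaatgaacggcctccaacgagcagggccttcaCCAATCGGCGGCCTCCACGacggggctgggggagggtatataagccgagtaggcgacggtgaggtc

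HSP90B1 held 2 ERSE matches and HYOU1 held 2 ERSE-II matches. The more distant of those in HYOU1, not printed above, overlaps the only match among the 28 genes to the unfolded protein response element (UPRE). The UPRE is spelled TGACGTGG, and 0.780% of all genes hold it. The shared end CCACG alone stood in 21 of the 28 genes and in 37.5% of all genes. The core of the amino acid response element bound by ATF4 and its partners, spelled TGATGNAAN, stood in 1 of the 28, HERPUD1, and in 3.87% of all genes.

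**Figure D1:**
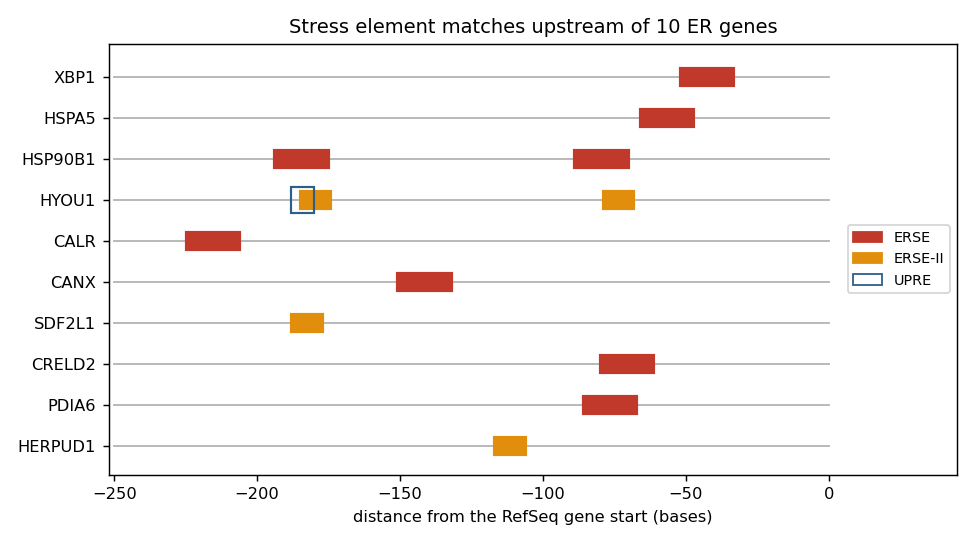
Matches to ERSE (red), ERSE-II (orange) and UPRE (blue outline) in the 250 bases upstream of a RefSeq start, for the 10 genes with an ERSE or ERSE-II. The x axis is the distance from that start in bases, to scale. HSP90B1 and HYOU1 have 2 matches each, and the UPRE of HYOU1 overlaps its more distant ERSE-II.

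The first question was whether lowering PRKCQ changed these genes. By the adjusted p of the authors' deposited tables, with a threshold of 0.05, 0 of 32 genes passed in TPA and 0 of 31 in DMSO; over all genes 0.113% passed in TPA and 0.108% in DMSO. At an unadjusted p under 0.05 there were 2 genes in TPA, DERL3 and CRELD2, and 1 in DMSO, DERL1, where 3.99% and 3.04% of all genes reached that level. The fold changes were small and mostly negative. In TPA 26 of the 32 were negative, with a median log2 fold change of -0.10, beside 47% negative and a median of 0.011 over all genes with an adjusted p. In DMSO 24 of the 31 were negative, with a median of -0.067, beside 47.7% negative and a median of 0.0075 over all genes. These counts are descriptions and not tests.

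The precision of each value bounds what could have been missed in the comparison over both lines, but not a change in either line alone. An implied standard error (SE) was computed as the fold change over the z of its p-value, and a 95% interval from it. Every value after ± below is this SE, and SEs, intervals and percentages of NTC were computed here from the fold changes and p-values of the authors' deposited tables. The interval takes z as standard normal. Over all genes with an adjusted p, the robust standard deviation of z was 0.840 in TPA and 0.753 in DMSO, so 95% is nominal. The interval included 0 for 30 of 32 genes in TPA and 30 of 31 in DMSO. Without DERL3, no such interval reached below 58.5% or above 152% of the NTC level in TPA, or below 62.0% or above 180% in DMSO. Of the 34085 TPA fold changes in the authors' deposited table, 2910 share the value 0.00054, while no DMSO value is shared by more than 2 genes. Whether the TPA values were shrunken is not stated. If they were, and their p-values came from an unshrunken fit, fold change over z is not a standard error. In that case the TPA SEs, intervals and bounds given here do not hold.

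**Figure D2:**
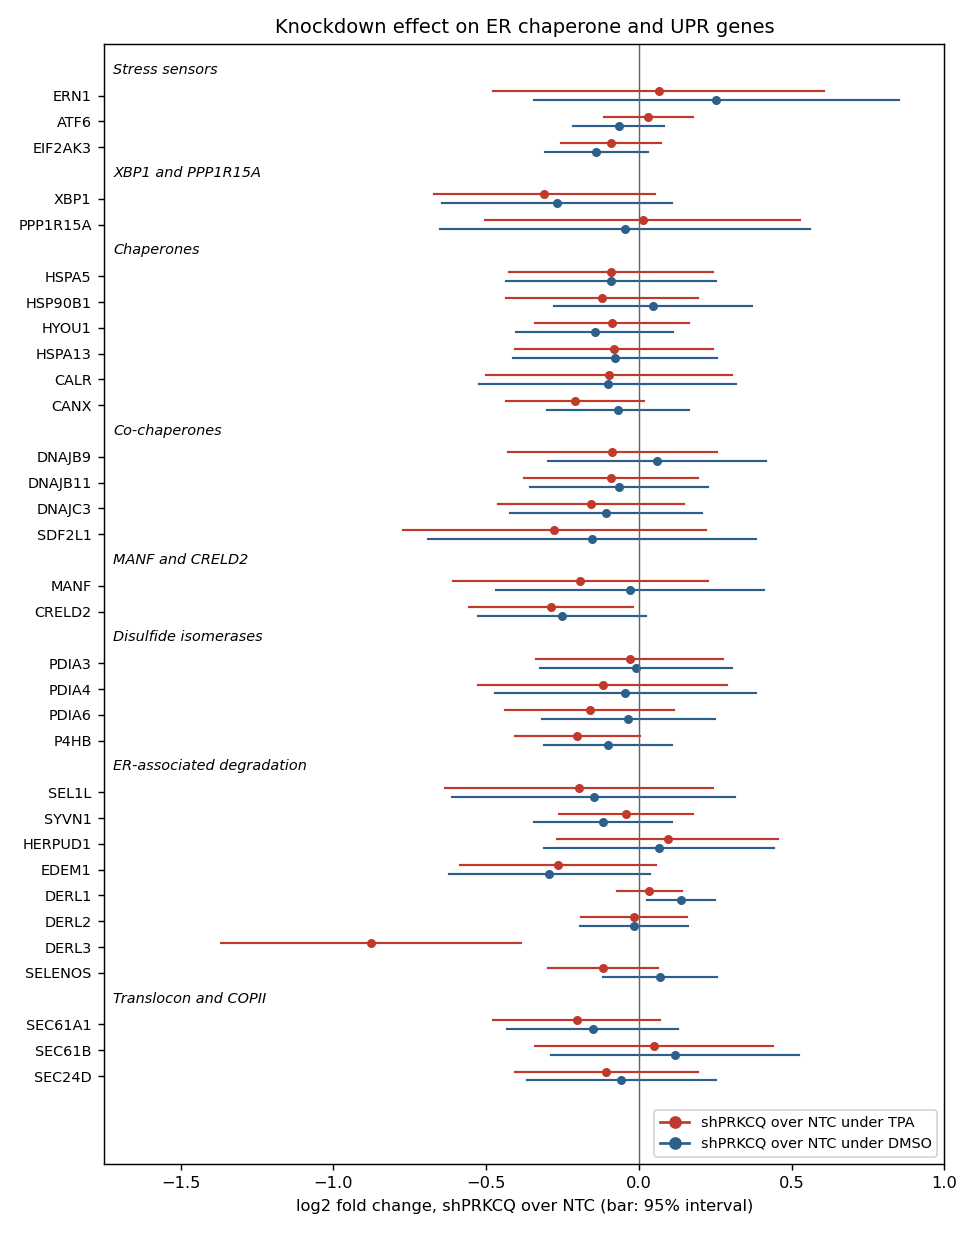
Log2 fold change of shPRKCQ over NTC for the 32 genes under TPA (red) and DMSO (blue), grouped by role, from the authors' deposited tables; points are the fold changes and bars the 95% intervals from the implied SE. All but 2 intervals in TPA and 1 in DMSO include 0, DERL3 stands lowest at -0.88 in TPA, and it has no DMSO value.

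Among the sensors, the authors' deposited tables put ERN1, the kinase and endoribonuclease that splices XBP1, at 0.064 ± 0.28 (SE) in TPA and 0.25 ± 0.30 in DMSO. ATF6, the membrane-bound transcription factor, was at 0.031 ± 0.075 in TPA and -0.067 ± 0.077 in DMSO in the authors' deposited tables. EIF2AK3, the kinase of the translation factor eIF2 alpha, was at -0.092 ± 0.084 in TPA and -0.14 ± 0.086 in DMSO in the authors' deposited tables (unadjusted p = 0.273 and 0.105). The narrow errors of ATF6 place its level between 92.3% and 113% of NTC in TPA and between 86.0% and 106% in DMSO, computed from the authors' deposited tables. For ERN1 the same intervals run from 71.8% to 152% in TPA and from 78.8% to 180% in DMSO, so a change of the size that CRELD2 shows lies within them.

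XBP1, the transcription factor that ERN1 activates and that drives folding and degradation genes, stood near the low end: of the 31 genes in both tables it was lowest in TPA and second lowest, after EDEM1, in DMSO. In the authors' deposited tables it was at -0.31 ± 0.18 in TPA and -0.27 ± 0.19 in DMSO, or 80.7% and 83.0% of the NTC level (unadjusted p = 0.0939 and 0.161; ENSG00000100219.16, chr22:28794555-28800597, GRCh38). Neither value passed. PPP1R15A (GADD34), the phosphatase subunit that ends the translation block set by EIF2AK3, was at 0.012 ± 0.26 in TPA and -0.045 ± 0.31 in DMSO in the authors' deposited tables.

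The general chaperones were close to the NTC level. HSPA5, which binds unfolded chains and holds the sensors inactive, was at -0.092 ± 0.17 in TPA and -0.091 ± 0.18 in DMSO in the authors' deposited tables, which is 93.8% and 93.9% of NTC with 95% intervals of 74.4% to 118% and 74.0% to 119% (ENSG00000044574.7, chr9:125234853-125241330, GRCh38). HSP90B1 (GRP94), the ER form of HSP90 that folds integrins and Toll-like receptors, was at -0.12 ± 0.16 in TPA and 0.047 ± 0.17 in DMSO in the authors' deposited tables. HYOU1, which exchanges the nucleotide of HSPA5, was at -0.088 ± 0.13 and -0.15 ± 0.13 in TPA and DMSO in the authors' deposited tables. HSPA13, an HSP70-like protein of the ER, was at -0.081 ± 0.17 and -0.077 ± 0.17 in TPA and DMSO in the authors' deposited tables.

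The lectin chaperones hold glycoproteins while they fold. CANX, the membrane-bound calnexin, was at -0.21 ± 0.12 in TPA and -0.069 ± 0.12 in DMSO in the authors' deposited tables (unadjusted p = 0.0710 and 0.561). CALR, its soluble relative calreticulin, was at -0.097 ± 0.21 in TPA and -0.10 ± 0.21 in DMSO in the authors' deposited tables. All 6 chaperones were thus negative in TPA and 5 of 6 in DMSO, and none passed.

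The co-chaperones direct HSPA5 to its clients. SDF2L1, a partner of DNAJB11 in the lumen, was lowest of them, at -0.28 ± 0.25 in TPA and -0.15 ± 0.27 in DMSO in the authors' deposited tables. DNAJC3 was at -0.16 ± 0.16 and -0.11 ± 0.16, and DNAJB11 at -0.090 ± 0.15 and -0.066 ± 0.15, in TPA and DMSO in the authors' deposited tables. DNAJB9 (ERdj4), which helps HSPA5 to silence ERN1, was at -0.087 ± 0.17 in TPA and 0.060 ± 0.18 in DMSO in the authors' deposited tables. None of the 4 passed.

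CRELD2 and MANF are ER-resident proteins that stress induces and that can be secreted. CRELD2 (ENSG00000184164.14, chr22:49918167-49927540, GRCh38) was at -0.29 ± 0.14 in TPA and -0.25 ± 0.14 in DMSO in the authors' deposited tables, or 81.9% and 83.9% of NTC (unadjusted p = 0.0365 and 0.0716, adjusted p = 1.00 in each). MANF was at -0.19 ± 0.21 in TPA and -0.030 ± 0.22 in DMSO in the authors' deposited tables. CRELD2 thus had nearly the same value under both treatments.

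Disulfide isomerases form and rearrange disulfide bonds in folding chains. P4HB, the founding isomerase and a subunit of prolyl 4-hydroxylase, was at -0.20 ± 0.10 in TPA and -0.10 ± 0.11 in DMSO in the authors' deposited tables (unadjusted p = 0.0546 and 0.338). PDIA6 was at -0.16 ± 0.14 and -0.034 ± 0.14, and PDIA4 at -0.12 ± 0.21 and -0.045 ± 0.22, in TPA and DMSO in the authors' deposited tables. PDIA3 (ERp57), which works with CANX and CALR and in loading of MHC class I, was nearest to 0 of this group, at -0.030 ± 0.16 and -0.0094 ± 0.16 in TPA and DMSO in the authors' deposited tables. All 4 isomerases were negative in both treatments and none passed.

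ER-associated degradation held both ends of the range in TPA, with DERL3 lowest and HERPUD1 highest. DERL3 (ENSG00000099958.14, chr22:23834503-23839128, GRCh38), a derlin that helps misfolded proteins out of the ER, had -0.88 ± 0.25 under TPA in the authors' deposited table. That is 54.5% of the NTC level with a 95% interval of 38.7% to 76.6% (unadjusted p = 0.000476, rank 55 of 34024 genes with a p-value). Its adjusted p in the authors' deposited table was 0.177, so it did not pass. After the p-values were rescaled for the narrow spread of z over all genes, its adjusted p was 0.0118. With that rescaling 113 genes passed the threshold of 0.05 in TPA, in place of 22. DERL3 overlaps SMARCB1 on the opposite strand. Such an overlap is not particular to DERL3: 18 genes of the ER chaperone and UPR set, DERL3 included, overlap a gene on the opposite strand. Whether reads were counted by strand is not stated. The paralogs of DERL3 stood nearer to 0. DERL1 was at 0.034 ± 0.055 in TPA and 0.14 ± 0.057 in DMSO (unadjusted p = 0.538 and 0.0164, adjusted p = 1.00 in each), and DERL2 at -0.017 ± 0.088 and -0.015 ± 0.091, in the authors' deposited tables. Whether the derlins differ from each other was not tested.

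EDEM1, which helps to send misfolded glycoproteins to disposal, was at -0.26 ± 0.16 in TPA and -0.29 ± 0.17 in DMSO in the authors' deposited tables. These values are 83.2% and 81.6% of NTC (unadjusted p = 0.104 and 0.0801). SEL1L and SYVN1 (HRD1) form the central ubiquitin ligase complex of the pathway. SEL1L was at -0.20 ± 0.22 and -0.15 ± 0.24, and SYVN1 at -0.044 ± 0.11 and -0.12 ± 0.11, in TPA and DMSO in the authors' deposited tables. HERPUD1, a ubiquitin-like membrane protein of the same complex, was positive in both, at 0.094 ± 0.19 and 0.066 ± 0.19 in the authors' deposited tables. SELENOS, a selenoprotein that draws the ATPase VCP to the membrane, was at -0.12 ± 0.092 in TPA and 0.068 ± 0.095 in DMSO in the authors' deposited tables. SYVN1 overlaps FAU, a ribosomal protein gene, on the same strand, so some reads could belong to either.

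For entry into and exit from the ER, SEC61A1, the pore of the translocon, was at -0.20 ± 0.14 in TPA and -0.15 ± 0.14 in DMSO in the authors' deposited tables (unadjusted p = 0.144 and 0.289). SEC61B, its small subunit, was at 0.048 ± 0.20 and 0.12 ± 0.21, and SEC24D, a cargo adaptor of COPII vesicles, at -0.11 ± 0.15 and -0.058 ± 0.16, in TPA and DMSO in the authors' deposited tables. In GENCODE 29, 9 of the 32 genes overlap another gene on the same strand, and XBP1, HSP90B1 and PDIA3 have named pseudogene copies, so that reads of these could be split.

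The next question was whether TPA changed the knockdown effect. By the difference of the fold changes over their combined implied SE, adjusted over 13007 genes of both tables, 0 of the 31 genes passed, and 0% of all genes did. At an unadjusted p under 0.05 there were 0 of the 31, against 0.438% of all genes, where uniform p-values would give 5%, so the test is conservative over these tables. The smallest unadjusted p was 0.162, for SELENOS, with a difference of TPA minus DMSO of -0.18 (95% interval -0.44 to 0.074). For HSPA5 the difference was -0.00096 (95% interval -0.48 to 0.48), and for XBP1 -0.041 (-0.56 to 0.48). These intervals leave room for differences larger than the effects themselves. Shrinkage of the TPA table alone would change the differences and their SEs.

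Side by side, 26 of the 31 genes had the same sign in both treatments, as did 64.3% of all genes. The sign was negative in both for 22 of the 31, beside 30.6% of all genes, and positive in both for 4, which were ERN1, HERPUD1, DERL1 and SEC61B. The value was lower in TPA than in DMSO for 23 of the 31, beside 52.5% of all genes, with a median difference of -0.048, beside -0.0084 over all genes, on fold changes that may not share 1 scale. By the names of the comparisons the tables share no library, but whether they were fitted together is not stated. Both treatments could also come from the same cultures, which the labels do not state.

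**Figure D3:**
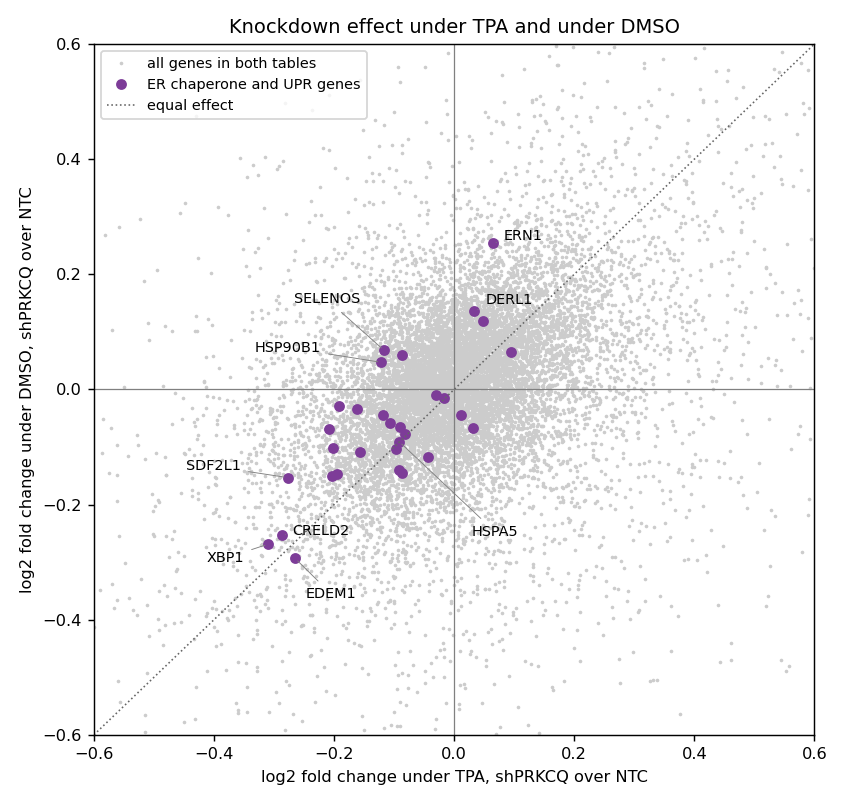
Log2 fold change of shPRKCQ over NTC under TPA (x axis) against that under DMSO (y axis), from the authors' deposited tables, for the 31 genes in both tables (purple) and all 13007 genes (grey, of which 312 lie outside the axes). XBP1, CRELD2 and EDEM1 stand together at the lower left, and 22 of the 31 genes are negative in both treatments.

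The genes were also set out by their promoters, as a description without a test. The 10 genes with an ERSE or ERSE-II had a median of -0.14 in TPA, with 9 negative, and -0.097 in DMSO, with 8 negative, in the authors' deposited tables. The 18 genes with a window and no exact match had -0.091 in TPA and -0.066 in DMSO, with 14 negative in each. Within the 10, values ran from -0.31 for XBP1 to 0.094 for HERPUD1 in TPA and from -0.27 for XBP1 to 0.066 for HERPUD1 in DMSO, so the ranges of the classes overlap.

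Beyond the 32, 114 other ER genes in 6 lists were examined. Of these, 113 had a p-value in TPA and 111 in DMSO, and none passed in the authors' deposited tables; 4 in each had an unadjusted p under 0.05, where 3.99% of all genes in TPA and 3.04% in DMSO did. Together 77 were negative in TPA, with a median of -0.039, and 71 in DMSO, with a median of -0.054; over all genes 47% and 47.7% were negative. Other regulators of the response and the ATF4 and CHOP arm had medians of -0.0034 in TPA, with 9 of 18 negative, and -0.12 in DMSO, with 12 of 17 negative. Within that list ATF4, the transcription factor translated when eIF2 alpha is phosphorylated, was at -0.14 ± 0.15 in TPA and -0.23 ± 0.15 in DMSO, and its target DDIT3 (CHOP) at -0.015 ± 0.28 and -0.12 ± 0.31, in the authors' deposited tables.

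Genes of N-glycosylation and glycan quality control were negative for 16 of 17 in TPA and 15 of 17 in DMSO, with medians of -0.047 and -0.088, beside 47% and 47.7% negative over all genes. Further folding enzymes had medians of -0.060 and -0.075 in TPA and DMSO, with 16 and 14 of 22 negative. Among them TXNDC5, an isomerase of the same family as P4HB, was at -0.35 ± 0.17 in TPA and -0.32 ± 0.17 in DMSO in the authors' deposited tables (unadjusted p = 0.0392 and 0.0640). COPII export and retrieval genes had medians of -0.082 in TPA and 0.0034 in DMSO, with 12 of 18 and 8 of 17 negative. The inner coat subunits SEC23B and SEC23A were at -0.28 ± 0.12 and -0.24 ± 0.12 in TPA, and at -0.20 ± 0.12 and -0.29 ± 0.13 in DMSO, in the authors' deposited tables. SEC23B had an unadjusted p of 0.0155 in TPA and 0.0865 in DMSO, and SEC23A 0.0504 and 0.0229.

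Translocation and signal peptide processing genes had medians of -0.049 and -0.017 in TPA and DMSO, with 15 and 11 of 20 negative. SEC63, which couples HSPA5 to the translocon, was at -0.18 ± 0.10 in TPA and -0.24 ± 0.11 in DMSO in the authors' deposited tables (unadjusted p = 0.0817 and 0.0207). Further degradation genes had medians of -0.0049 and -0.018, with 9 and 11 of 18 negative. FAF2, which recruits VCP to the ER membrane, had the smallest p of the 114 under both treatments, at -0.27 ± 0.096 in TPA and -0.24 ± 0.098 in DMSO in the authors' deposited tables (unadjusted p = 0.00481 and 0.0137, adjusted p = 0.561 and 1.00). ERLEC1, an ER lectin, was at -0.20 ± 0.089 in TPA and -0.13 ± 0.091 in DMSO in the authors' deposited tables (unadjusted p = 0.0278 and 0.151).

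**Figure D4:**
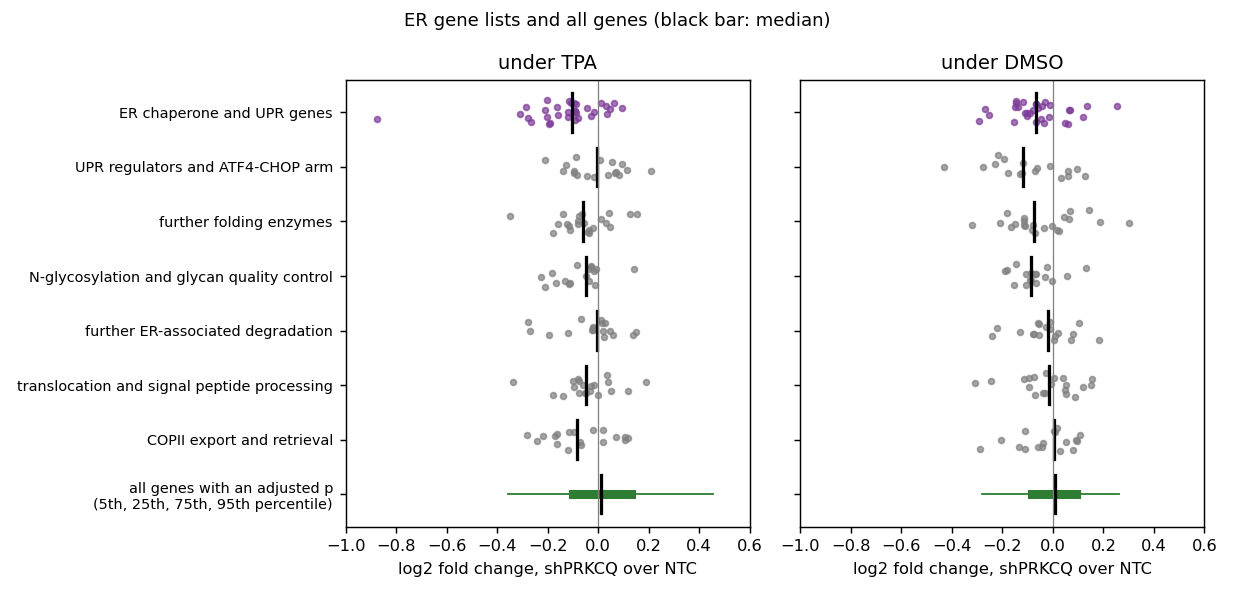
Log2 fold change of shPRKCQ over NTC for each gene of the ER chaperone and UPR set (purple) and of 6 other ER lists (grey), under TPA (left) and DMSO (right), from the authors' deposited tables; black bars are medians, and the green bars give the middle of all genes with an adjusted p. The ER chaperone and UPR set has medians of -0.10 in TPA and -0.067 in DMSO, and most lists lie slightly below 0 with wide overlap with all genes.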

How the data were processed

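RNA sequencing of 24 libraries was used through 2 tables of the authors' own comparisons. Per the file headers, each deposited table has a log2 fold change, its p-value and an adjusted p-value, and some listed genes lack 1 or more of these. The submitters' processing notes name DESeq2 1.18.1, RSEM 1.3.0, STAR 2.5.3a and GRCh38, with no role for each. Model, covariates, filters and shrinkage were not given in the sources used here. Libraries were strand-specific and poly(A)-selected, per the labels' protocols. The TPA table lists 58780 genes, 19417 with an adjusted p; the DMSO table lists 13025, 13007 with one. Depth is unknown and no count test was run.

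The genes, lists and tests were chosen with earlier results of these data known. Every one of the 32 genes is named; of 114 other ER genes, those with an unadjusted p under 0.05 in either table are, except 1 that is not reported here, while ATF4 and DDIT3 were named after their values were seen. GET3 was matched through its identifier, and UGGT2 has no p-value. From each p-value and sign a z was computed, and from it an implied SE (fold change over z) and a 95% interval. For TPA minus DMSO a difference test took the tables as independent, with Benjamini-Hochberg adjustment over 13007 genes. The test was run on simulated independent normal values that had the implied SEs. In the data the robust standard deviation of the difference z was 0.579, so the simulation does not show how the test behaves here. Positions are from GENCODE 29 and promoters from RefSeq (GRCh38.p14). No protein sequence was used. Python 3.11.15, numpy 2.4.6, scipy 1.17.1, pandas 2.3.3 and matplotlib 3.10.9 were used.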

Additional observations from a re-analysis of the deposited data

How the results depend on the processing

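No paired analysis was possible because the files compare groups and carry no library columns. For the same reason, leaving out replicates, other normalizations and filters on counts were not run. Under p-values rescaled by the robust SD of z (0.840 in TPA and 0.753 in DMSO), 1 of the 32 genes passed in TPA, DERL3, and 0 in DMSO; all genes passing then numbered 113 in TPA, against 22, and 109 in DMSO, against 14. With thresholds of 0.01 and 0.1, and with adjustment over every gene with a p-value or over the genes of both tables, 0 of the ER chaperone and UPR genes passed in either treatment; DERL3 is not among the genes of both tables. Adjusted over every gene with a p-value, DERL3 had an adjusted p of 0.294. For the difference between TPA and DMSO, 0 passed at a threshold of 0.1, with a difference of z-values or with z rescaled, under which 24 of all genes passed and the smallest adjusted p of the 31 was 0.608. The median in TPA (-0.10) was -0.13 as a mean, -0.084 as a weighted mean, -0.11 after centring on all genes and -0.097 without DERL3; in DMSO (-0.067) these were -0.059, -0.037, -0.074 and -0.067.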

Other observations

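The implied SEs of the tables were close to each other gene by gene. For the 31 genes in both tables the ratio of the SE in TPA to that in DMSO lay between 0.851, for PPP1R15A, and 0.981, for CANX, with a median of 0.971. Over 10506 genes whose z was above 0.1 in size in both tables the median was 0.970, with quartiles of 0.938 and 0.978. What the tables share that makes these ratios alike was not tested.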
